A study of Mus musculus with 2 samples.

Results

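The mouse alpha and beta globin loci were represented by 78 of the 174638 genomic probes of a tiling array. Membership rested on position alone and used no measured value. A probe belonged to the alpha globin cluster if its start in the mm9 build lay in a fixed window of 40 kb on chromosome 11 (41 probes), and to the beta globin cluster if it lay in one of 60 kb on chromosome 7 (37 probes). The probes so chosen span chr11:32167228-32200509 and chr7:110961941-111002863. The globin genes sought there were Hba-x, Hba-a1 and Hba-a2 on chromosome 11 and Hbb-b1, Hbb-b2, Hbb-bh1 and Hbb-y on chromosome 7. The array files hold positions without gene names, so the results below are given for tiled blocks, and a block is tied to a gene only where spacing allows it.

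The study asked how DNA methylation differs between mouse embryonic fibroblasts (MEFs), which are connective tissue cells grown from embryos, and MEFs cultured with thymidine, the deoxynucleoside of thymine. All MEFs came from C57BL/6 embryos at E14.5. Before the culture, magnetic beads had removed cells with CD45, CD31, CD41 or c-Kit on their surface, proteins found on blood progenitors and some other cells. The remaining cells grew on a feeder layer of MEFs treated with mitomycin, which stops division. The untreated group (1 array) received no agent, and the thymidine group (1 array) received 100 µM thymidine for 2 days. The source label of the thymidine sample also names sorting by CD45, and its input DNA is described as MEF DNA in one label and as DNA of thymidine-treated cells in another. The labels do not say whether feeder DNA was removed. Both arrays carried the precipitate in Cy5 and the input in Cy3.

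The assay was methylated DNA immunoprecipitation on an array (MeDIP-chip). DNA sheared to 200 to 1000 bp was precipitated with an antibody against 5-methylcytosine, and precipitate and input were hybridised to the same array. Each probe value is log2(Cy5/Cy3) of the processed signals, centred on the array median, so 0 is the median genomic probe and a higher value means more precipitate per input. The antibody pulls down more of a fragment with many methylated CpG dinucleotides, and a fragment with few CpG gives little precipitate whatever its methylation. The ratio is therefore not a percentage of methylation, and in DNA from a mixture of cells a larger share of methylated cells and denser methylation per cell cannot be told apart. With 1 array per group there was no spread between replicates, and no p-value could be given for any value below. Probes of a block share DNA fragments and are not replicates.

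Haemoglobin is built from alpha-type and beta-type chains, each encoded by a cluster of related genes. Embryonic red cells use Hba-x (zeta globin) with Hbb-y and Hbb-bh1, and later red cells switch to the adult genes. The adult alpha chains come from Hba-a1 and Hba-a2. The adult beta chains come from Hbb-bs and Hbb-bt in strains with the single haplotype, such as C57BL/6, and from Hbb-b1 and Hbb-b2 in strains with the diffuse haplotype. Distant enhancers drive both clusters in red cell precursors, and those of the alpha cluster lie within introns of the neighbouring gene Nprl3. Fibroblasts do not normally make haemoglobin.

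In the GRCm38.p6 assembly of RefSeq the alpha locus comprises 6 genes from Nprl3 to Hbq1a, in the order Nprl3, Hba-x, Hba-a1, Hbq1b, Hba-a2 and Hbq1a, where Hbq1b and Hbq1a encode theta globins. The beta locus from Hbb-bt to Hbb-y comprises 7, in the order Hbb-bt, Hbb-bs, the pseudogenes Gm15115 and Hbb-bh3, then Hbb-bh2, Hbb-bh1 and Hbb-y. Promoter sequences were found for 10 of 13 globin and neighbour symbols, including 4 of the 7 genes sought. The precipitated mark lies mostly at CpG dinucleotides. The 250 bases before the gene start of 7 globin genes are shown with each CpG in capitals, to set beside the blocks how many such sites the promoters offer the antibody.
Hba-x: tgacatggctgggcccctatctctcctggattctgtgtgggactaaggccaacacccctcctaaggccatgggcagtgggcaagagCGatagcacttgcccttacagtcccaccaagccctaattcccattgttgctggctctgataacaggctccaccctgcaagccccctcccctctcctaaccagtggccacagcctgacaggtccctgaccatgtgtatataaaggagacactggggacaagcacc
Hba-a1: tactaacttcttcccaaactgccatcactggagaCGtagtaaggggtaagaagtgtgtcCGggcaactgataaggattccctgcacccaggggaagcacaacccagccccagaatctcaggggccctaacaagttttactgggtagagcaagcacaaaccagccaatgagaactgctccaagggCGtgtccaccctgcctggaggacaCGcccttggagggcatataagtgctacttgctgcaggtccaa
Hbq1b: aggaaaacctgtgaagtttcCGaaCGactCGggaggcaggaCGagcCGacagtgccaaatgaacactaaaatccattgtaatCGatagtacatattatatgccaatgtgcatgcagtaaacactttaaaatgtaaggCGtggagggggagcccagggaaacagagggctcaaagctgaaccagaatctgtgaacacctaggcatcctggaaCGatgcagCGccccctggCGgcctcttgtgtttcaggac
Hbq1a: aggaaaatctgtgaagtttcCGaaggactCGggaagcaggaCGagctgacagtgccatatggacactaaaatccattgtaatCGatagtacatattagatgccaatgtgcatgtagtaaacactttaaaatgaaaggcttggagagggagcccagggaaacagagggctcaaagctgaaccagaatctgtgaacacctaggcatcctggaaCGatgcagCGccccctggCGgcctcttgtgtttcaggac
Hbb-bt: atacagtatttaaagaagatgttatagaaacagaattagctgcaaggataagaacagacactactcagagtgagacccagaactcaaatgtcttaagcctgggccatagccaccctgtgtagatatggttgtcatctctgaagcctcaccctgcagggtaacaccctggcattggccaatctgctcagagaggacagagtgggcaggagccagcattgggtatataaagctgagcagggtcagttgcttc
Hbb-bs: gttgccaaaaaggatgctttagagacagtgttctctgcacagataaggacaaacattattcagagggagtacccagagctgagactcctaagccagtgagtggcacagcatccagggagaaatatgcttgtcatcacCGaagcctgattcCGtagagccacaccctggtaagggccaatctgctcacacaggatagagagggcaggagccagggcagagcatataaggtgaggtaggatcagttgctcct
Hbb-y: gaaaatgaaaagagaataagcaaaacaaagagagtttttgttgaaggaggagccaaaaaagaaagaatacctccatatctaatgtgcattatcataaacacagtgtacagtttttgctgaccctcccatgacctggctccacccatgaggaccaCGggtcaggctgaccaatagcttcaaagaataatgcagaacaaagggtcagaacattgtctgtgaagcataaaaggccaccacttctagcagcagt

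These RefSeq sequences are read 5′ to 3′ along the gene. In GRCm38.p6 they lie at chr11:32276350-32276599 (Hba-x), chr11:32283422-32283671 (Hba-a1), chr11:32286714-32286963 (Hbq1b) and chr11:32299819-32300068 (Hbq1a) on the plus strand. Those of the beta cluster lie at chr7:103813924-103814173 (Hbb-bt), chr7:103827929-103828178 (Hbb-bs) and chr7:103853208-103853457 (Hbb-y) on the minus strand. The theta promoters Hbq1b and Hbq1a held 10 and 7 CpG, and Hba-a1 held 4. The embryonic genes Hba-x and Hbb-y held 1 each, the adult Hbb-bs held 2 and Hbb-bt held 0. Hbb-bh2, not shown, held 3, so the counts of the clusters overlap. Over the 32851 RefSeq promoter windows of this length the median was 6 CpG, with quartiles of 2 and 16, and 92.1% held at least 1. The Hba-a2 promoter also held 4 CpG, and its sequence was identical to that of Hba-a1 over the 247 bases that the windows share. The pair of theta promoters were identical at 239 of 250 bases (95.6%). The Hbb-bs and Hbb-bt promoters were identical at 178 of 243 aligned bases (73.3%), with 8 gapped positions.

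Spacing tied some of the tiled blocks to these genes. A block is a run of probes whose starts lie less than 1000 bp apart, and the alpha cluster had 7 blocks and the beta cluster 4. Blocks 3 and 5 of the alpha cluster held 4 pairs of probes at one distance, 12817 bp, which equals the distance between matching bases of the Hba-a1 and Hba-a2 promoters in GRCm38.p6. Blocks 4 and 7 held 3 pairs at 13105 bp, which equals the distance between the Hbq1b and Hbq1a promoters. Beta blocks 3 and 4 also held 3 pairs at one distance, 13256 bp, and were tied to no gene pair; in none of those pairs were both probes kept, and the untreated inputs differed up to 3.51-fold. Equal spacing alone thus does not name a gene. The first 2 probes of beta blocks 1 and 2 lay 14009 bp apart, beside 14005 bp between the windows of Hbb-bt and Hbb-bs. A distance of 13798 bp also gave 2 pairs in these blocks, and every other pair of beta blocks held at least 2 pairs at one distance. Matched probes alone thus do not single out 14009 bp, and the link of beta blocks 1 and 2 to genes is tentative. Each pair of blocks set beside a gene pair also stands in the order of its genes. The distances were compared within each build, and no coordinate was carried from one build to the other. This comparison was made after the probe positions had been seen. No annotation of mm9 was used here, so alpha blocks 1, 2 and 6 and beta blocks 3 and 4 are named by position only.

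Of the 78 probes, 66 were kept because the input channel was well above background on both arrays and no outlier flag was set. They were 37 of 41 in the alpha and 29 of 37 in the beta cluster, against 81.6% of all genomic probes. Replicate spots of control probes differed by a median SD of 0.075 on the untreated and 0.10 on the thymidine array, over 56 probes with 294 spots. The mean difference between the arrays for those control probes ran from -0.73 to 0.62, with a median of -0.29. This range reaches past the smaller of the sizes used below to count probes that differ, 0.5, and not past the larger, 1. None of the sources used here says what DNA the control probes measure. The ratios of the members on the 2 arrays had a Pearson correlation of 0.94 over the 37 alpha probes and 0.95 over the 29 beta probes, as a description, and it was 0.93 over all kept probes.

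The alpha cluster sat at the array median and the beta cluster below it on both arrays. The median log2 ratio of the 37 alpha probes was 0.026 on the untreated array, with an SD over probes of 1.05 and a range from -2.52 to 1.34. On the thymidine array it was 0.029 (SD 0.81, from -1.80 to 1.30). The 29 beta probes had a median of -0.48 without treatment (SD 1.18, from -3.16 to 1.84) and -0.31 with thymidine (SD 0.97, from -2.50 to 1.65). The alpha median thus exceeded the beta median by 0.51 on the untreated and by 0.33 on the thymidine array. The ranges of the clusters overlapped.

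**Figure D1:**
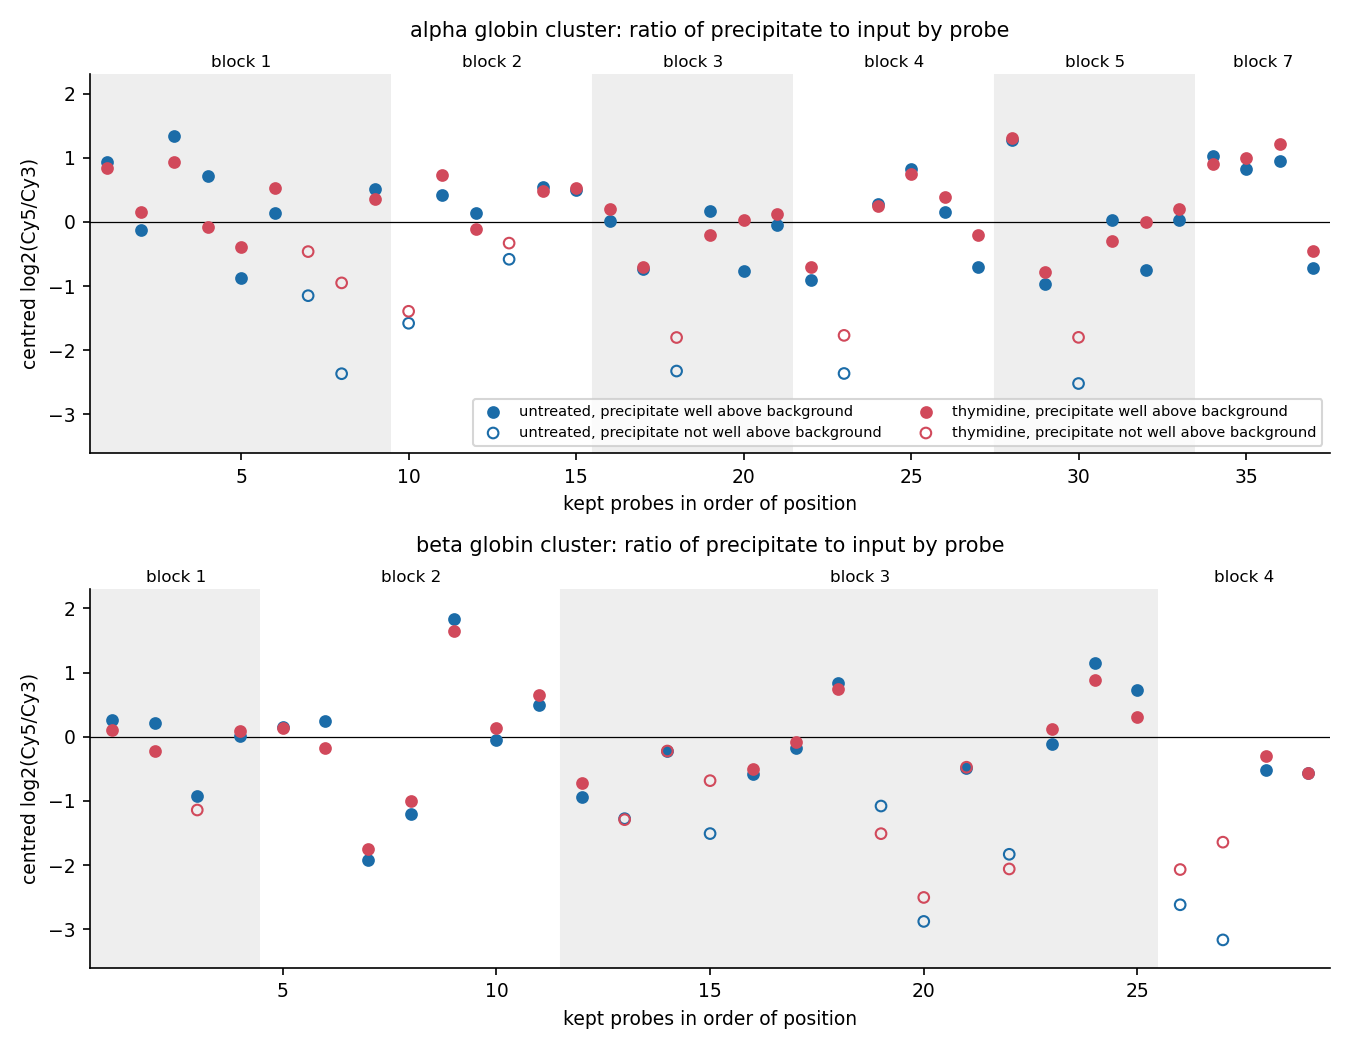
Centred log2(Cy5/Cy3) of every kept probe (y axis) in order of position within the alpha (top, 37 probes) and beta (bottom, 29 probes) clusters, untreated in blue and thymidine in red. Open circles mark probes whose precipitate was not well above background on that array. The arrays follow each other from probe to probe, and the lowest values, down to -3.16, are open circles.

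Probes at or below -1, meaning a precipitate to input ratio of at most 0.5 times that of the median probe, numbered 6 of 37 in the alpha cluster on the untreated array and 9 of 29 in the beta cluster. The same held for 15% of all kept probes. With thymidine these counts were 4 and 8, beside 11.3% of all kept probes. The alpha counts are near the background on both arrays, while the beta counts are 31.0% and 27.6% of its probes. Chromosome 7 as a whole had 20.5% and 16.5%, and chromosome 11 had 12.6% and 8.82%. All of the low alpha and most of the low beta probes had a precipitate not well above background on at least 1 array. Probes at or above 1 numbered 3 in the alpha and 2 in the beta cluster on the untreated array (background 7.17%), and 2 and 1 on the thymidine array (background 7.6%).

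The gap between the clusters was smaller among probes with a measurable precipitate. Precipitate well above background was found at 30 of 37 alpha probes on each array, and at 22 of 29 beta probes on the untreated and 19 on the thymidine array, against 85.1% and 83.8% of all kept probes. Over the 49 probes measured in both channels on both arrays (30 alpha and 19 beta) the medians were 0.15 and 0.018 without treatment and 0.20 and 0.092 with thymidine. The alpha median then exceeded the beta median by 0.13 and 0.11. This restriction removes probes because their precipitate is dim, and so removes low ratios by construction. With loess normalization of each array the gap was -0.014 on the untreated array, with beta above alpha, and 0.25 on the thymidine array.

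At the median both channels were dimmer in the beta cluster, and this lay in its blocks 3 and 4, with 14 and 4 of the 29 kept probes. On the untreated array the median inputs of beta blocks 1 to 4 were 685, 1171, 278 and 366. Their median precipitates were 788, 822, 251 and 157, so blocks 1 and 2 were not dim. The median input signal of the kept beta probes was 386 on the untreated and 398 on the thymidine array, where the alpha probes had 780 and 852 and all kept probes 744 and 791. The median precipitate signal of the beta probes was 337 and 381, against 820.5 and 884 in the alpha cluster and 768 and 828 over all kept probes. Relative to the array median on the log2 scale, the beta input stood at -0.95 and -0.99 and the beta precipitate at -1.19 and -1.12. The alpha input stood at 0.067 and 0.11 and its precipitate at 0.095 on both arrays. Input signal differs between probes that cover the same amount of DNA, and the part of probe brightness in the gap between the clusters was not tested.

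**Figure D2:**
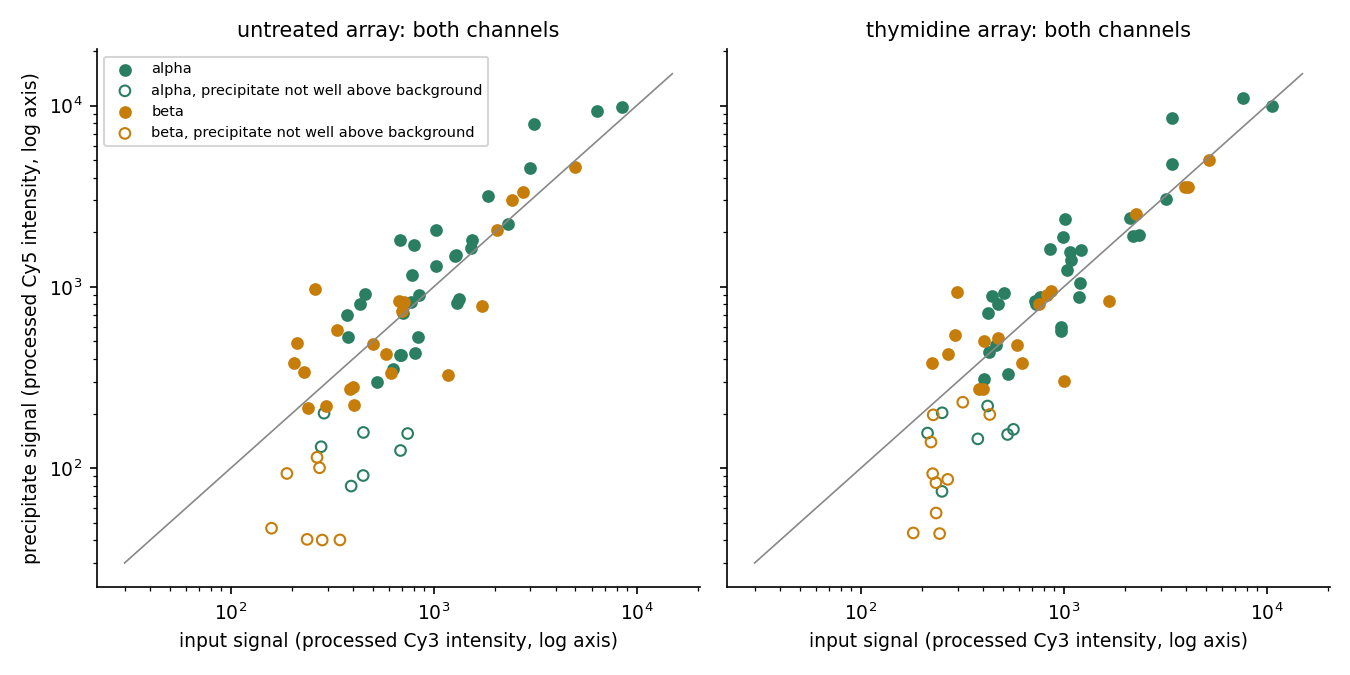
Processed precipitate signal (Cy5, y axis) against processed input signal (Cy3, x axis) for the kept alpha (green) and beta (orange) probes on the untreated (left) and thymidine (right) array, both on log axes. Open circles are probes whose precipitate was not well above background, and the grey line marks equal signals. The medians of the beta probes lie lower in both channels, with inputs of 386 and 398 beside 780 and 852 for alpha.

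The flanks of the beta cluster had a level near its own. Within 500 kb on either side of the beta window, 269 kept probes had a median ratio of -0.40 on the untreated and -0.29 on the thymidine array. Of them, 23.0% and 20.1% were at or below -1. The 85 kept probes around the alpha window had medians of 0.14 and 0.095, with 0.29 and 0.12 on the side of lower coordinates (50 probes) and -0.14 and -0.010 on the side of higher ones (35 probes). Chromosome 7 as a whole stood at -0.12 and -0.091, and chromosome 11 at 0.035 and 0.033. The beta medians of -0.48 and -0.31 thus lay just below those of the flanks, and the low level was not confined to the globin window.

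Within the alpha cluster, the block with the highest median was block 7 (chr11:32199844-32200509 in mm9), which spacing ties to the theta globin gene Hbq1a. Its 4 probes, all measured in both channels, had ratios of 1.02, 0.83, 0.94 and -0.72 on the untreated array. On the thymidine array they had 0.91, 0.99, 1.21 and -0.45. The first 3 were high on both arrays and the fourth low on both. The block median of 0.89 and 0.95 was above that of 99.5% and 99.6% of the 21518 tiled regions with at least 3 kept probes. Those regions held a median of 6 kept probes, and a median over fewer probes, as here, varies more. Over the other ways of processing the arrays the block median ran from 0.62 to 0.96 on the untreated array and was 0.63 or higher on the thymidine array. Block 4 (chr11:32185664-32187404), tied to the paired theta gene Hbq1b, had 6 kept probes with medians of -0.27 and 0.021, which other processing moved to as high as 0.0063 and as low as -0.14. The first 2 probes of block 4 have no equally spaced partner in block 7. They stood at -0.91 and -2.36 without treatment and at -0.71 and -1.77 with thymidine.

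Of the 3 equally spaced theta probe pairs, the second stood apart. The first pair had 0.83 in both blocks on the untreated array, and 0.75 and 0.99 on the thymidine array. The second pair had 0.15 in block 4 and 0.94 in block 7 without treatment, and 0.38 and 1.21 with thymidine, a gap of 0.79 and 0.82. The third pair stood at -0.70 and -0.72, then at -0.20 and -0.45. The second pair also differed in input signal, which was 1293 in block 4 and 1025 in block 7 on the untreated array. Its precipitate ran the other way, at 1501 and 2059. On the thymidine array the input was 1217 and 1015 and the precipitate 1603 and 2366, so the Hbq1a side again had more precipitate over less input. The probe before these pairs in each block, not exactly at that spacing, had 0.28 and 0.24 in block 4 and 1.02 and 0.91 in block 7.

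The adult alpha genes gave nearly equal values at their paired probes. In blocks 3 (chr11:32182625-32184038, tied to Hba-a1) and 5 (chr11:32195196-32196855, tied to Hba-a2) the 4 pairs had untreated ratios of -2.32 and -2.52, 0.18 and 0.027, -0.77 and -0.76, and -0.045 and 0.026. With thymidine they had -1.80 and -1.80, -0.21 and -0.29, 0.029 and 0.0050, and 0.12 and 0.20. The median gap within a pair was 0.11 on the untreated and 0.053 on the thymidine array. Adjacent kept probes of one globin block differed by a median of 1.05 and 0.82 over 56 pairs, so the paired probes lay closer than neighbours and near the spread of replicate control spots. Input signals within a pair differed at most 1.09-fold on the untreated array. Where both copies share the probe sequence, each probe reads DNA of Hba-a1 and Hba-a2 together, and their values are then not separate measurements of the genes. The files used here give no probe sequences, so that identity was not tested.

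**Figure D3:**
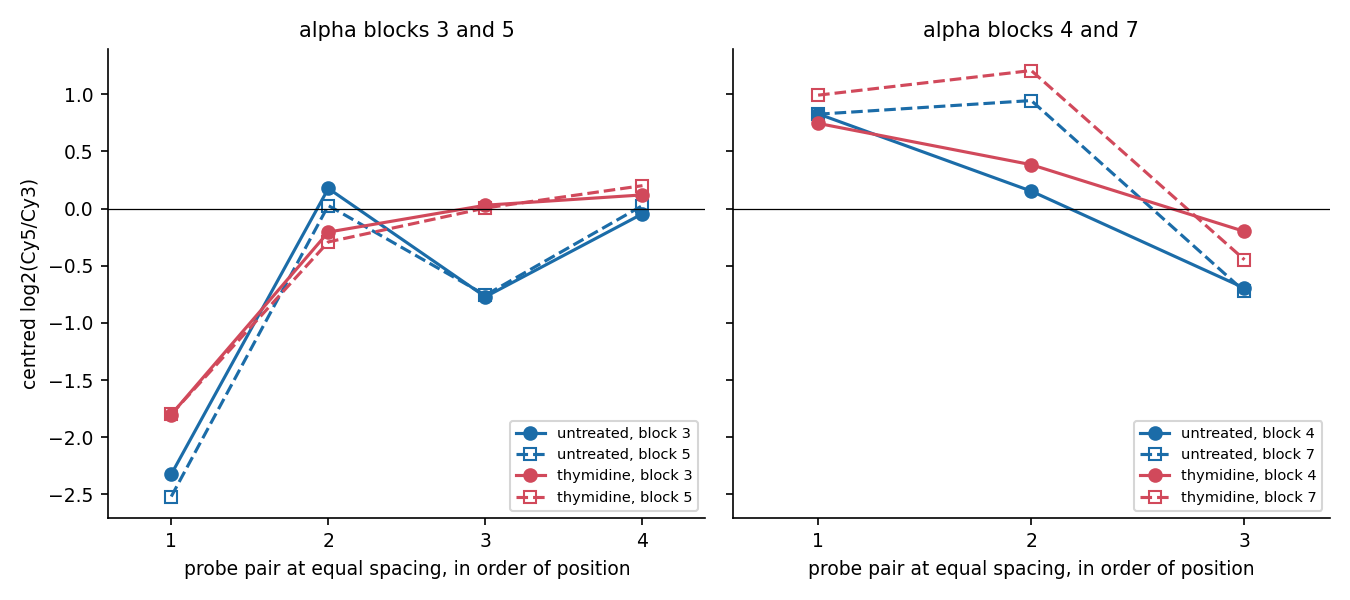
Centred log2(Cy5/Cy3) (y axis) of probes at equal spacing in alpha blocks 3 and 5 (left, 4 pairs, tied to Hba-a1 and Hba-a2) and blocks 4 and 7 (right, 3 pairs, tied to Hbq1b and Hbq1a), for untreated (blue) and thymidine (red). Solid lines with circles are the first block of each pair and dashed lines with squares the second. The adult alpha copies overlie each other, and the second theta pair is apart by 0.79 and 0.82.

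Over all kept probes, block 3 had medians of -0.39 and -0.088, and block 5 of -0.37 and -0.14. Over the 5 probes of each that were measured in both channels they were -0.045 and 0.029, and 0.026 and 0.0050. Each held 1 probe below -1 on both arrays, and its precipitate was not well above background. Block 5 also held a probe without a partner at 1.28 and 1.30, whose precipitate signal of 7953 and 8509 was among the brightest of the cluster. Block 5 thus held a low and a high ratio within 1660 bp.

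Blocks 1 and 2 of the alpha cluster lie at the lower coordinates, on the side of Nprl3 and Hba-x in the gene order. Block 1 (chr11:32167228-32168940) had medians of 0.15 and 0.15 over 9 probes, and on the untreated array its probes ran from -2.37 to 1.34. Block 2 (chr11:32175357-32177014) had medians of 0.29 and 0.18 over 6 kept probes, which became -0.10 and -0.17 when dim probes were not filtered out. Block 1 ran from -0.075 to 0.37 and from -0.051 to 0.22 over all ways of processing. Block 2 held the brightest probe of either cluster on the input side, with an input of 8476 and 10638 and ratios of 0.15 and -0.11. The lone probe of block 6 (chr11:32198801-32198860) lies 1043 bp before block 7 and was not kept, because its input was not well above background on both arrays.

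In the beta cluster, blocks 1 and 2 stood near the array median and blocks 3 and 4 below it. Block 1 (chr7:110961941-110963609), linked tentatively to Hbb-bt by spacing, had medians of 0.12 and -0.064 over 4 kept probes of 7. Block 2 (chr7:110975950-110977628), linked tentatively to Hbb-bs, had 0.15 and 0.13 over 7 probes, all measured in both channels. Loess turned both blocks below 0 on the untreated array, to -0.056 and -0.047. Block 2 ran from -1.91 to 1.84 without treatment and from -1.74 to 1.65 with thymidine. The probe at the top of that range was the highest of both clusters on each array, with a precipitate signal of 976 over an input of 261 on the untreated array, and of 943 over 298 on the thymidine array.

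Beta blocks 1 and 2, linked tentatively to the adult genes, were alike at their first 2 probes and not beyond. The first probes had 0.25 and 0.15 on the untreated array and 0.10 and 0.13 on the thymidine array. The second probes had 0.22 and 0.24, then -0.22 and -0.18. The third probes, 14001 bp apart, had -0.93 in block 1 and -1.91 in block 2 without treatment, with input signals of 406 and 1171. The fourth had 0.018 and -1.20. The similarity of the second probes extended to the difference between the arrays, given further below.

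Block 3 of the beta cluster (chr7:110988546-110992655) was the longest, with 15 probes, and 14 of them kept. Its medians were -0.53 and -0.49, which placed it above 12.9% and 11.7% of the tiled regions. A gap of 995 bp between probe starts, just under the 1000 bp that separates blocks, divides it into stretches with medians of -0.57 and -0.48 on the untreated array and -0.50 and -0.47 with thymidine. Only 7 of the 14 kept probes were measured in both channels on both arrays, and other processing moved the untreated median to as high as -0.045. Just after the gap, 4 probes ran from -2.88 to -0.48 on the untreated and from -2.50 to -0.47 on the thymidine array, and their precipitate was not well above background on at least 1 array. The last 3 probes of the block had -0.12, 1.15 and 0.72 without treatment and 0.12, 0.88 and 0.31 with thymidine.

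Block 4 (chr7:111001254-111002863), at the higher coordinates where Hbb-y stands last in the gene order, had the lowest medians of the clusters, -1.59 and -1.10 over 4 kept probes of 8. Of the tiled regions, which held a median of 6 kept probes, 2.51% and 3.20% were lower. Its probes had -2.62, -3.16, -0.51 and -0.56 on the untreated array and -2.07, -1.64, -0.31 and -0.56 on the thymidine array. The first 2 had precipitate signals of 40.5 and 40.2 on the untreated array and 56.6 and 86.7 on the thymidine array. None of these was well above background, so the size of their ratios is uncertain. Over the 2 probes measured in both channels the medians were -0.53 and -0.44, and over the other ways of processing the block medians rose to as high as -0.45 and -0.29. Of the 10 blocks with at least 3 kept probes, 2 had a median at or below -0.5 on the untreated array (13.9% of tiled regions), both in the beta cluster, and 1 on the thymidine array (11.2%).

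Over kept probes, the difference between the arrays, thymidine minus untreated, was above that of the whole array at the median in the alpha cluster. In the beta cluster the difference lay below that of the whole array at the median, though not among probes measured in both channels. For the alpha probes it had a median of 0.19, an SD over probes of 0.41 and a range from -0.79 to 1.41. For the beta probes the median was 0.0077 (SD 0.40, from -0.44 to 1.52), and over all kept probes it was 0.066. The flanks within 500 kb had medians of 0.11 around the alpha and 0.088 around the beta window. Around the alpha window it was 0.16 on the side of higher and 0.048 on the side of lower coordinates. The ratio was higher with thymidine at 26 of 37 alpha (70.3%) and 15 of 29 beta probes, beside 57.5% of all kept probes. On the higher and lower sides of the alpha window it was higher at 71.4% and 58% of probes, so the alpha values were not confined to the globin window. The alpha median exceeded the beta median by 0.18. Over the probes measured in both channels on both arrays, the medians were 0.17 for alpha and 0.072 for beta. All probes so measured had a median of 0.039, so the beta median then lay above that of the whole array. With the authors' deposited log ratios in place of the scanner signals, centred in the same way, the alpha median was 0.044.

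**Figure D4:**
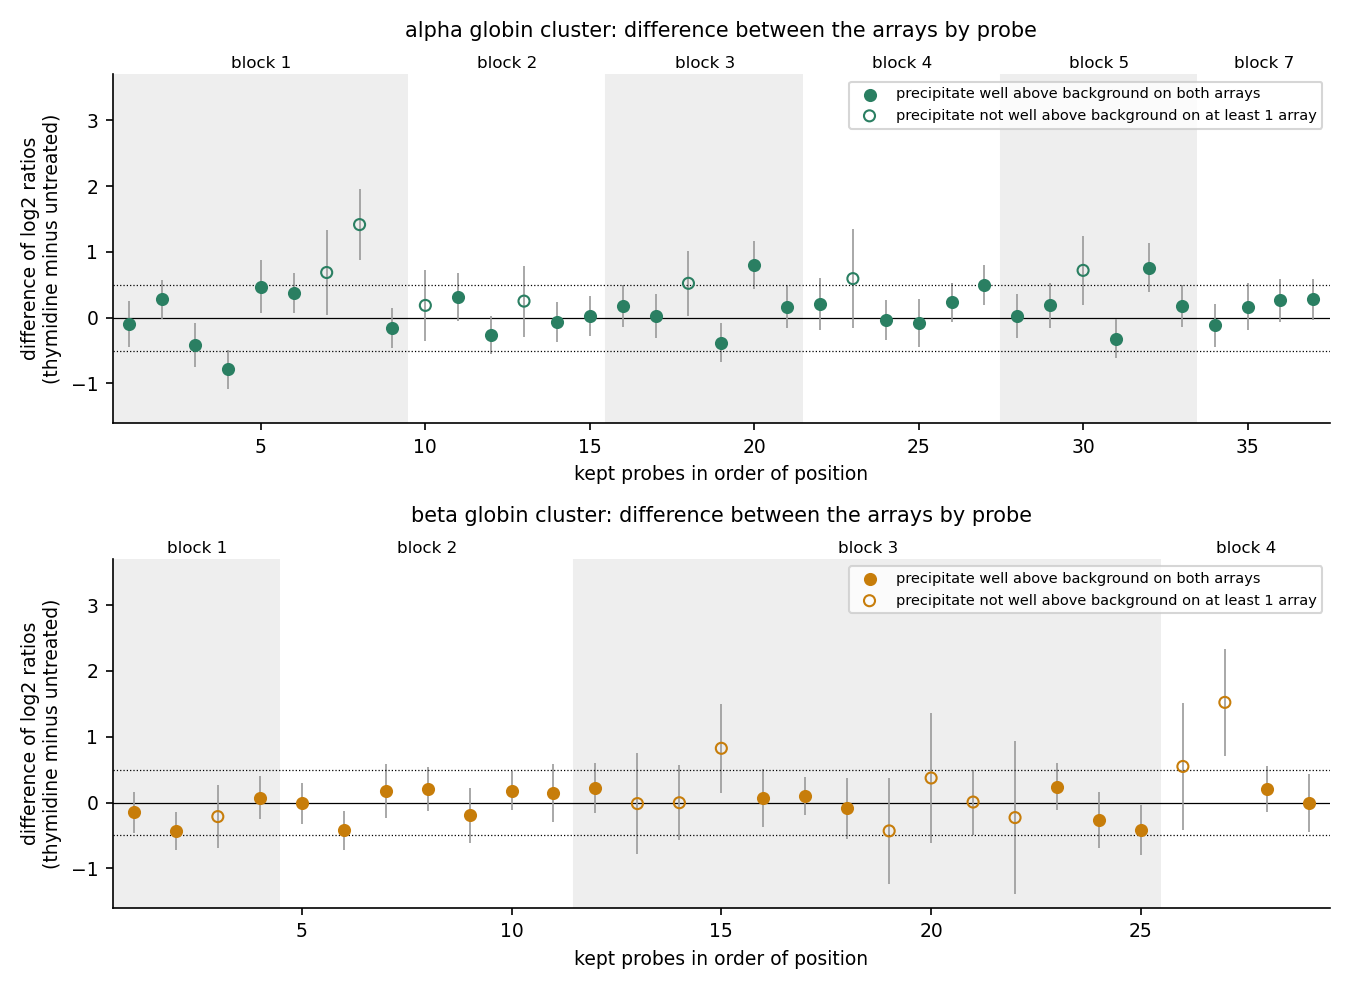
Difference of the centred log2 ratios between the arrays (thymidine minus untreated, y axis) for each kept probe in order of position in the alpha (top) and beta (bottom) clusters. Grey bars are 1 scanner error of the difference on each side, dotted lines mark differences of 0.5 and -0.5, and open circles are probes whose precipitate was not well above background on at least 1 array. The points with the greatest differences, 1.41 and 1.52, are open circles.

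A difference of 0.5 or more was found at 7 of 37 alpha and 3 of 29 beta probes, where 11% of all kept probes reached it. In the flanks of the alpha and beta windows 16.5% and 12.3% did. The alpha count includes equally spaced pairs of blocks 3 and 5, at 0.52 and 0.72 and at 0.80 and 0.76. The probes of such a pair may read the same DNA, so they are not separate counts. A difference of -0.5 or less was found at 1 alpha and 0 beta probes, with a background of 4.43%. A difference of 1 or more was found at 1 probe of each cluster (background 1.07%), in both cases with a precipitate not well above background. A difference of -1 or less was found at 0 probes (background 0.0926%). Among probes measured in both channels on both arrays, 2 alpha probes and 0 beta probes were higher by 0.5 or more (7.11% of all probes so measured), and 1 alpha probe was lower by 0.5 or more (4.34%). Those 2 higher alpha probes were the equally spaced pair at 0.80 and 0.76. No block reached a median of 0.5 or more (background 0.962% of tiled regions) or of -0.5 or less (background 0.0883%). The block medians ran from -0.18 in beta block 1 to 0.38 in beta block 4, and the 6 alpha blocks lay between 0.11 and 0.28. Probes with a dim precipitate weighed in these values, in either direction. Over the probes measured in both channels, the median was -0.090 in alpha block 1 (0.28 over all kept) and -0.021 in alpha block 2 (0.11 over all kept). It was 0.0996 in beta block 4 (0.38 over all kept). In beta block 3 it was higher, at 0.072 (0.0026 over all kept). The medians of the other blocks changed less.

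The size of the difference went with the level of the ratio over the whole array. Kept probes with a mean ratio of the arrays below -2 had a median difference of 0.49 (6024 probes), and those between -2 and -1 had 0.31. The 3 alpha probes below -2 had a median difference of 0.59, and the 3 beta probes 0.55, and at none of these 6 was the precipitate well above background on both arrays. Between -2 and -1 the 2 alpha probes had a median of 0.80, and the 7 beta probes had -0.016, below the value for the whole array. After the trend of the difference on the level was removed, the cluster medians were 0.13 for alpha and -0.099 for beta, with 5 of 66 probes at 0.5 or more (6.03% of all kept probes under the same correction) and 3 at -0.5 or less (6.48%) over both clusters. The part of this trend in the differences of single probes was not tested further.

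The precipitate channel alone differed little at the median. Centred on its own array median, it differed by a median of -0.026 in the alpha and -0.022 in the beta cluster. The input channel differed by -0.11 in the alpha and -0.011 in the beta cluster. The positive alpha median of the ratio thus stood beside a lower input median and a precipitate median near 0. The labels do not settle which culture gave that input, and its part in the difference was not tested.

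At single probes either channel could differ. The scanner software gives an error for each log ratio, and the difference exceeded 2 such errors at 4 of 37 alpha probes (10.8%) and 0 of 29 beta probes, against 2.95% of all kept probes in either direction. This error covers the reading of the spot and not the variation between cultures. The 4 alpha probes include an equally spaced pair of the adult alpha blocks. The probes of that pair may read the same DNA, so they are not separate counts. In block 1, the fourth probe fell from 0.71 to -0.075, a difference of -0.79, and its input rose from 1858 to 3191 while its precipitate was 3173 and 3057. In the same block the eighth probe went from -2.37 to -0.95, with an input of 449.6 and 422 and a precipitate of 91.1 and 220.3, so here the precipitate differed, at a level not well above background on either array.

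The other probes past 2 errors were an equally spaced pair in the adult alpha blocks. The fifth probe of block 3 went from -0.77 to 0.029, with an input of 690.3 and 466 and a precipitate of 422 and 480.3. Its partner in block 5 went from -0.76 to 0.0050, with an input of 684 and 429.8 and a precipitate of 422 and 435. Another equally spaced pair moved the other way, from 0.18 to -0.21 in block 3 and from 0.027 to -0.29 in block 5, with inputs of 1548 and 2188, and of 1536 and 2351. In each of these pairs the signals of the arrays were further apart in the input than in the precipitate. Across the 4 pairs the difference between the arrays differed within a pair by a median of 0.051 and at most 0.20.

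In the beta cluster the second probes of blocks 1 and 2 differed alike between the arrays. The ratio differed by -0.44 in block 1 and by -0.42 in block 2. The input went from 2764 to 4079 and from 2427 to 3977, and the precipitate from 3357 to 3537 and from 2999 to 3544. These are the lowest differences of the cluster apart from 1 probe in block 3 at -0.43, and neither reached -0.5. Whether these second probes read the same DNA was not tested, so they may not be separate measurements.

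The gap between the clusters depended on the processing. The authors' deposited table of log ratios, which had slopes of 0.50 and 0.54 against the scanner log2 ratios over all kept probes, gave an alpha minus beta gap of 0.16 on the untreated and 0.39 on the thymidine array. Its direction was that of the scanner ratios (Pearson correlation 0.90 and 0.88 over all kept probes) and its column medians were -0.014 and -0.019, while the base of its logarithm and any smoothing are unknown from the files and labels. Normexp background correction gave gaps of 0.18 and 0.20.

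**Figure D5:**
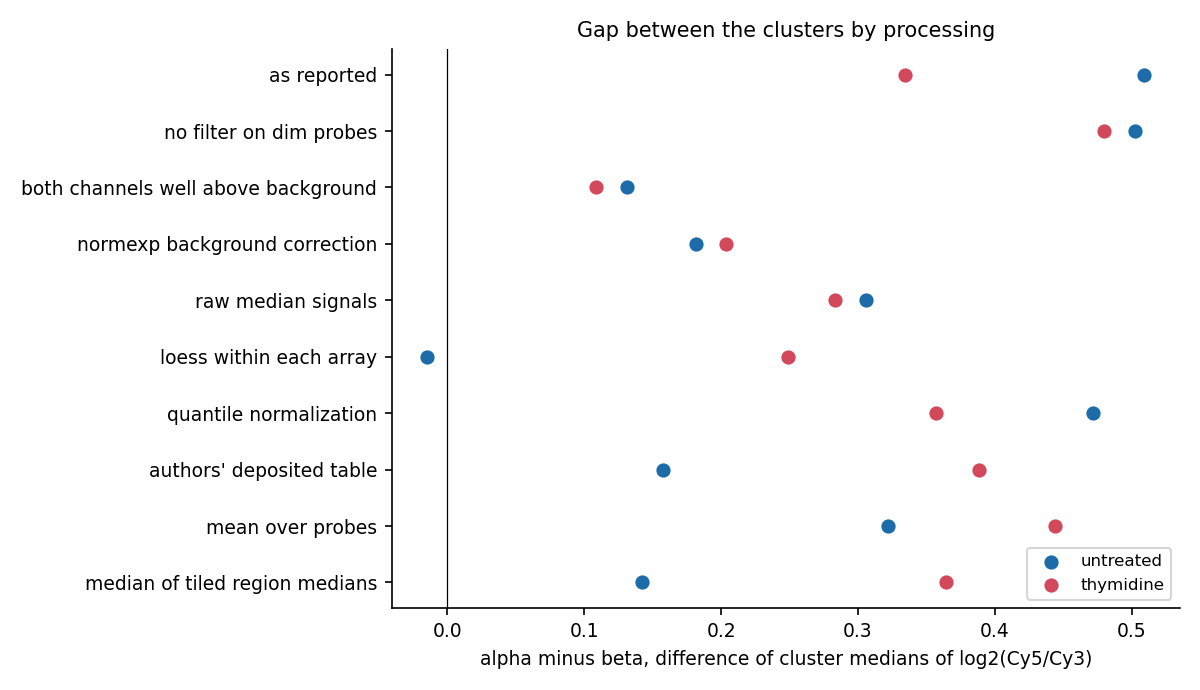
Alpha minus beta difference of the cluster medians of log2(Cy5/Cy3) (x axis) under each way of processing the arrays (y axis), untreated in blue and thymidine in red. The gap is 0.51 and 0.33 as reported, is smaller under every other setting drawn on the untreated array, and is -0.014 on that array with loess normalization.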

How the data were processed

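MeDIP-chip was done on 1 untreated and 1 thymidine array. Per the file headers, the scanner software was Agilent Feature Extraction 11.0.1.1 with a grid in mm9 positions. The deposited intensity values are, per the file headers, raw medians of spots and local background, and processed signals from which background was subtracted and whose dyes were matched by a linear factor. The deposited log10 ratios and their errors are the scanner software's own, per the file headers. The authors' deposited table holds log ratios of the same arrays, used here as if log2, although slopes of 0.50 and 0.54 against the scanner log2 ratios settle no log base, and their normalization is unknown from the files and labels.

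The log2(Cy5/Cy3) of the processed signals had the median over the 142569 kept genomic probes of its array subtracted. Control spots (5827), 57 probes with an outlier flag and 32012 with a dim input were left out. No member was saturated. Differences are thymidine minus untreated, and differences of 0.5 and 1 in size and ratios of -1 and 1 were counted over all kept probes for comparison. All probes in the 2 windows and all tiled blocks are described. Globin genes were to be named where sequence or an mm9 annotation tied a probe to them, which the files did not allow, so the link by spacing was chosen after the positions were seen, as was the division of the longest block. A list of other globin and haem genes could not be tied to probes and was not analysed here. The members and lists were chosen with earlier results of these data known. The number of arrays limits the precision, and slide, scan and group cannot be told apart. Python 3.11.15, pandas 2.3.3 and limma 3.58.1 in R 4.3.3 (normexp with an offset of 50, and loess, as alternatives) were used, and the cluster summaries were tested on simulated data.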

Additional observations from a re-analysis of the deposited data

How the results depend on the processing

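Over the 2 clusters the values below compare with alpha medians of 0.026 and 0.029 and beta medians of -0.48 and -0.31 (untreated, then thymidine), gaps of 0.51 and 0.33, 15 and 12 low probes (-1 or less), 5 and 3 high probes (1 or more), median differences of 0.19 (alpha) and 0.0077 (beta), and 10 higher and 1 lower probes (difference of 0.5 or more in size). Without the filter on dim probes the beta medians were -0.41 and -0.42, the thymidine gap 0.48, and there were 8 high untreated probes and 2 lower probes. Restricted to probes measured in both channels and centred on them, the beta medians were -0.13 and -0.048, the gaps 0.13 and 0.11, the low probes 6 and 2, and 3 probes were higher. This setting changed the probes and the centring together, and with the centring kept 2 probes were higher. Normexp gave beta medians of -0.21 and -0.19, gaps of 0.18 and 0.20, 3 and 1 low probes, 3 high untreated probes, and 2 higher and 2 lower probes. Raw median signals gave an untreated beta median of -0.34 and gap of 0.31, 3 high untreated and 4 low thymidine probes, a beta difference of 0.14 and 2 lower probes. Loess gave untreated medians of -0.092 (alpha) and -0.078 (beta), a thymidine beta median of -0.16, an untreated gap of -0.014, which is reversed, 8 and 4 low probes and 2 lower probes. Quantile normalization gave 6 higher and 3 lower probes. The authors' deposited table gave untreated medians of -0.12 (alpha) and -0.28 (beta) and an untreated gap of 0.16, 5 and 2 low and 0 and 0 high probes, an alpha difference of 0.044 and 0 higher probes, on a scale whose log base is unknown, so these counts are not comparable in size. Means over probes gave an untreated alpha value of -0.23, a thymidine beta value of -0.49 and gaps of 0.32 and 0.44. Medians of block medians gave untreated values of -0.063 (alpha) and -0.21 (beta) and a gap of 0.14. Removing the level trend left 5 higher and 3 lower probes, and the precipitate channel alone gave an alpha difference of -0.026 with 2 higher and 0 lower probes. The cause of these shifts was not tested. Of the cluster values recomputed under these settings, 65 stayed within the SD of replicate control spots (within 1.5 times for a count), 56 moved further and 1 reversed. Of the values for single blocks and the counts within each cluster, 172 stayed within it and 147 moved further. Correction for the CpG content of a probe and restriction to blocks matching a globin promoter were not run, since they need probe sequences. No paired analysis was possible because each group has 1 array, and leaving out an array leaves no comparison.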
